A study of Mus musculus with 16 samples.

Results

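The proteasome genes of mouse femoral cortical bone were taken as every listed feature whose symbol begins with Psma to Psmg and a digit, leaving out symbols that end in -ps. This gave 48 of the 36829 features, of which 47 passed the filter of a mean of at least 0.5 RPKM over all mice (reads scaled to the length of the gene and the size of the library) and were tested. The members were 7 alpha and 7 constitutive beta subunits of the core, the immunoproteasome subunits Psmb8 and Psmb10, the tissue-restricted Psma8 and Psmb11, 6 ATPases and 11 other subunits of the regulatory particle, 7 assembly chaperones, 5 activators or inhibitors, and Psmc3ip, which matches by symbol but encodes a factor of meiotic recombination. Psmb9 had no feature under that symbol and was not analysed here. RNA came from the femurs of 16 female C57Bl/6 mice aged 11 weeks, 8 with normal weightbearing (control) and 8 after 7 days of hindlimb unloading (HLU), a model of disuse in which the tail is suspended so that the hindlimbs bear no weight. The comparison addressed which transcripts of bone respond to disuse. The ends of the bones were cut off, the marrow was flushed out and no cells were sorted. The libraries thus held unsorted cortical bone with the blood cells that remained. Fewer cells of a type cannot be told apart from less RNA per cell.

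The proteasome degrades proteins tagged with ubiquitin. Its barrel-shaped core stacks alpha and beta rings, and the active sites sit on the beta subunits Psmb5, Psmb6 and Psmb7. In blood cells and under interferon, Psmb8, Psmb9 and Psmb10 take their places and form the immunoproteasome. A regulatory particle unfolds substrates with its ATPases (Psmc genes) and captures and trims ubiquitin chains with its other subunits (most Psmd genes), and dedicated chaperones build the rings. In bone, proteasomes degrade regulators of osteoblasts such as beta-catenin and RUNX2, and unloaded muscle is known for raised proteasome activity.

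By the divisors recovered from the RPKM values, the control libraries held 7067512 to 19708590 reads and the HLU libraries held 7838277 to 21363584 reads. The means of the 6 osteocyte markers in control mice ran from 6.11 RPKM for Pdpn (at least 55 reads per library) to 140 RPKM for Mepe, with Dmp1 at 112 RPKM. None of the 7 skeletal muscle markers had a feature under its symbol, so muscle content could not be read from them. Granulocyte markers summed to 12750 to 45410 RPKM in HLU and 17910 to 38490 RPKM in control mice. Control 1, Control 4 and HLU 4 stood apart from the other libraries in their low values of GC-rich transcripts, as described with the members below.

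No proteasome gene passed an adjusted p under 0.1 with a change of at least 1.2-fold in limma, where 0% of the 16973 features tested did so, and limma voom on the recovered reads likewise gave 0. At an unadjusted p under 0.05 there were 2 members and 1049 features (6.18%). By the looser description of an unadjusted p under 0.05 with at least 1.2-fold, 2 of 47 members (4.26%) were lower in HLU mice, Psmg2 and Psmd5, against 4.76% of all features. In the other direction 0 members passed, against 1.11% of all features. The members' shares were thus near the background in either direction. Of the members, 41 had a log2 fold change below 0 (87.2%, with 67.9% among all features), and the median was -0.11, beside -0.10 over all features. Rescaling the libraries by median-of-ratios size factors brought the medians to -0.02 for the members and -0.02 for all features. This rescaling brings the median of all features near 0 by its construction, so it cannot tell a difference in scaling from a broad decrease. For 35 of 47 members the 95% interval of the change lay within 1.5-fold either way. The values of the groups did not overlap in 0 members and in 5 of all features (0.0295%). Without Control 1, Control 4 and HLU 4, 2 members were lower (Psmg2 and Psmg4) against 5.41% of all features, and the median of the members was -0.17.

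**Figure D1:**
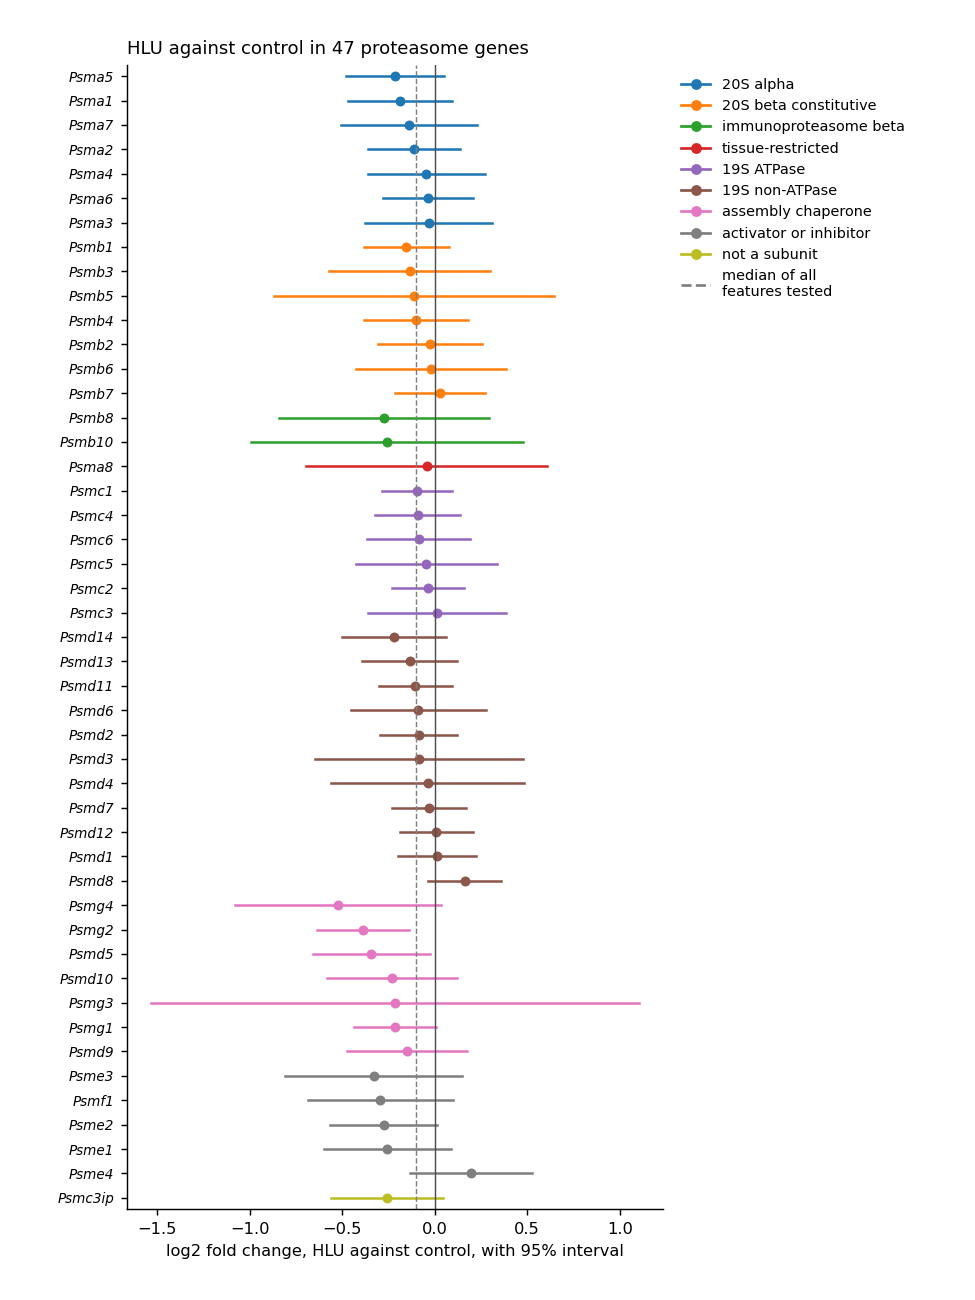
Log2 fold change of HLU against control mice (x axis) for each of the 47 proteasome genes tested (y axis, ordered by structural group). Points are limma estimates on log2(RPKM + 0.1), bars are 95% intervals, the solid line marks no difference and the dashed line the median of all features tested, -0.10. Most points lie between the lines or just left of them, and the interval lies wholly below 0 in Psmg2 and Psmd5.

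The 7 alpha subunits, which form the outer rings and gate the entrance of the core, were all on the low side in HLU mice, with log2 fold changes from -0.22 (Psma5) to -0.03 (Psma3) and a median of -0.11. None had an unadjusted p under 0.05, and all 7 intervals lay within 1.5-fold. Mean abundance over the 16 mice ran from 7.74 RPKM for Psma3 to 75.0 RPKM for Psma6, although the rings hold equal copies of each alpha subunit. The gene length behind the RPKM differed as well, at 6255 bases for Psma3 and 1906 bases for Psma6. Over the 47 members tested, these lengths ranged from 742 to 10775 bases, and the Spearman correlation of mean RPKM with length was -0.28, as a description across genes that are not independent. Psma5 was measured at 23.9 to 39.8 RPKM with a median of 27.2 RPKM in control mice and at 18.9 to 30.9 RPKM with a median of 24.3 RPKM in HLU mice. Of the HLU mice 4 lay below every control mouse and the others within the control range, and the difference of -0.22 (SE 0.13) had an adjusted p of 0.744 in limma.

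The 7 constitutive beta subunits had a median log2 fold change of -0.10, with 6 of 7 below 0 and none past an unadjusted p of 0.05. Psmb7, which carries the trypsin-like active site, was the most abundant member of all, at 134 ± 18.4 RPKM in control and 137 ± 20.6 RPKM under HLU (SD, n = 8 mice each). It ranged from 111 to 173 RPKM with a median of 130 RPKM in control mice and from 109 to 164 RPKM with a median of 139.8 RPKM in HLU mice. The ranges nearly coincided, and the interval of its log2 difference, 0.03 (SE 0.12), ran from -0.21 to 0.27.

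Psmb6, the caspase-like subunit, ranged from 10.7 to 27.4 RPKM with a median of 21.1 RPKM in control mice and from 11.7 to 23.7 RPKM with a median of 20.97 RPKM in HLU mice. The groups overlapped almost completely, with a log2 difference of -0.02 (SE 0.19), which turned positive under both rescalings of the libraries (0.07 and 0.11). Psmb5, the chymotrypsin-like subunit that most proteasome inhibitors block, varied more between mice than any other core subunit. It ranged from 8.61 to 39.7 RPKM with a median of 27.7 RPKM in control mice and from 8.22 to 33.1 RPKM with a median of 18.8 RPKM in HLU mice. The lowest mice of either group were thus alike, and the log2 difference of -0.11 (SE 0.36, adjusted p = 0.941 in limma) was far smaller than the within-group SD of 0.78.

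By RPKM, the immunoproteasome subunits were less abundant than their constitutive counterparts, and they were lower on average in HLU mice without passing the test. The gene length behind the RPKM was 3848 bases for Psmb8 and 1361 bases for Psmb5, so their order in abundance depends on these lengths. In reads per library they were alike, at 181 to 933 for Psmb8 and 134 to 999 for Psmb5. The lengths of Psmb10 and Psmb7 were close, at 1270 and 1322 bases. Psmb8, which takes the place of Psmb5, ranged from 4.78 to 15.6 RPKM with a median of 9.36 RPKM in control mice and from 2.88 to 12.1 RPKM with a median of 7.74 RPKM in HLU mice. The mice of the groups were intermixed, with a log2 difference of -0.27 (SE 0.27, adjusted p = 0.795). Psmb10, which takes the place of Psmb7, ranged from 3.43 to 16.8 RPKM with a median of 7.67 RPKM in control mice and from 2.41 to 10.1 RPKM with a median of 7.52 RPKM in HLU mice. The highest values belonged to control mice and the medians were alike, with a log2 difference of -0.26 (SE 0.35, adjusted p = 0.853). The intervals of Psmb8 (-0.84 to 0.30) and Psmb10 (-0.996 to 0.476) both reached past 1.5-fold on the low side. Without HLU 4 the differences were -0.08 for Psmb8 and -0.06 for Psmb10.

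**Figure D2:**
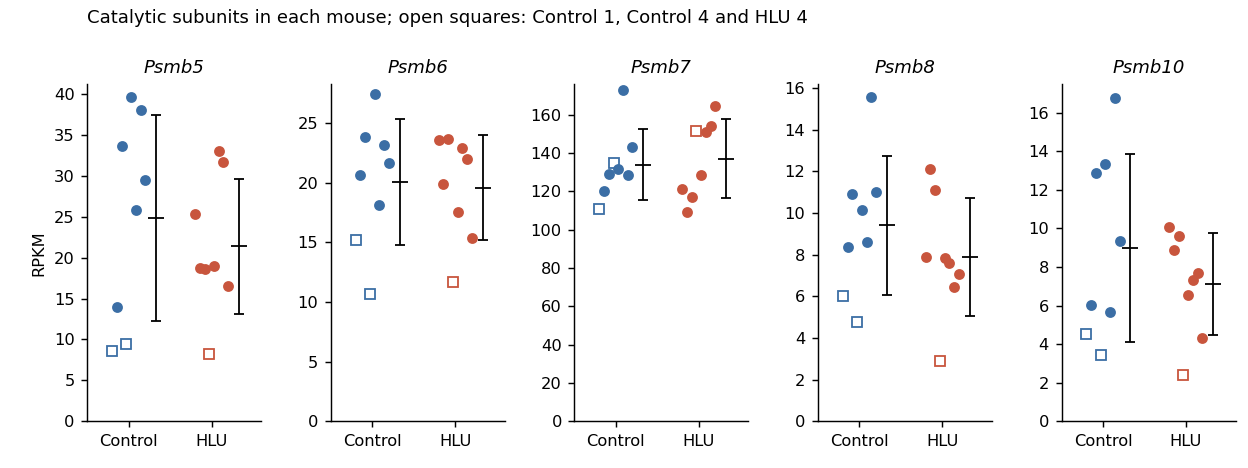
RPKM (y axis, from 0) of the catalytic subunits Psmb5, Psmb6, Psmb7, Psmb8 and Psmb10 in each control and HLU mouse, with the mean and SD of each group at its right. Open squares mark Control 1, Control 4 and HLU 4, which hold the lowest values of Psmb8 and Psmb10 in their groups and the lowest of Psmb5, whereas for Psmb7 HLU 4 lies among the upper HLU mice.

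Psmb8 spans chr17:34197721-34201454 on the plus strand and Psmb5 spans chr14:54614119-54618022 on the minus strand (GRCm38, GENCODE M21). The letters around a regulatory motif in each promoter are shown because these genes encode the exchangeable subunits of the same active site. The capitals mark TTCNNNGAA, the gamma-activated site of interferon gamma signalling, in Psmb8 and TGACNNNGC, the antioxidant response core that NRF1 and NRF2 bind, in Psmb5.
Psmb8: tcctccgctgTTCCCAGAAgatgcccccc
Psmb5: cgtgaagttgTGACGTCGCggcgttgcca
The Psmb8 letters are chr17:34198088-34198116, from position -107 to -79 of the RefSeq start (GRCm38.p6), which lies inside the GENCODE span of the gene. The Psmb5 letters are chr14:54618024-54618052, from position -57 to -29. RefSeq promoters of 300 bases (250 before and 50 after the start) were matched for 40 of 48 members and gave 43 windows, searched on both strands. The gamma-activated site was in 6.98% of them (Psmb8, Psmd2 and Psmg1) and in 8.3% of all 32851 promoters. The antioxidant core was in 14% (Psmb5, Psmb6, Psmc6, Psmd12, Psmd9 and Psme4) and in 12.4% of all promoters. The core of the interferon-stimulated response element was in 11.6% (Psmb3, Psmd4, Psmd9, Psme1 and Psmg4) and in 3.44% of all. CCAAT was in 32.6% and in 37.4% of all, TGACGTCA was in 0% and in 1.79% of all, and the NF-kappaB letters were in 0% and in 1.63% of all. These are matches of letters and not measured binding.

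The ratio of an immunoproteasome subunit to its counterpart does not depend on how the libraries are scaled. Its level depends on the gene lengths behind the RPKM, whereas its difference between the groups does not. The log2 ratio of Psmb8 to Psmb5 was -1.27 ± 0.49 in control and -1.44 ± 0.60 under HLU (SD, n = 8 mice each; two-sided exact permutation test, p = 0.543). The difference of -0.17 had an interval of -0.75 to 0.42. The log2 ratio of Psmb10 to Psmb7 was -4.09 ± 0.85 in control and -4.38 ± 0.86 in HLU mice (n = 8 each, exact permutation p = 0.499). Its difference of -0.29 had an interval of -1.21 to 0.63. Neither ratio differed beyond the spread between mice, and the Benjamini-Hochberg adjusted p over the 2 ratios was 0.543 for each. Without Control 1, Control 4 and HLU 4 the difference of the Psmb8 to Psmb5 ratio turned to 0.02 (exact permutation p = 0.959).

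Within groups, the ratio of Psmb8 to Psmb5 was higher in mice with higher granulocyte markers. Pearson's r was 0.86 over the 16 mice after centring on the group means (permutation p = 2e-05, adjusted p = 0.00012 over 6 relations), and Spearman's rho was 0.81 (permutation p = 0.00048, adjusted p = 0.00288). Without HLU 2 and HLU 7, the farthest on the marker axis, r was 0.78. It was 0.80 within control and 0.92 within HLU mice. At the highest control score (Control 2) Psmb8 was at 8.35 RPKM and Psmb5 at 13.9 RPKM. At the lowest (Control 5) they were at 10.1 and 39.7 RPKM. At the highest HLU score (HLU 2) they were at 12.1 and 18.7 RPKM, and at the lowest (HLU 7) at 6.45 and 31.8 RPKM. At the higher score Psmb8 was thus lower in this control pair and higher in the HLU pair, and Psmb5 was lower in both. Either gene alone was not tested against the markers. With B lymphocyte markers r of the ratio was 0.75 (permutation p = 0.00165, adjusted p = 0.00495, rho 0.75 with permutation p = 0.00194), and 0.59 without HLU 7 and Control 5. With osteocyte markers r was -0.39 (permutation p = 0.127, adjusted p = 0.255) and rho was -0.42 (permutation p = 0.113). For the ratio of Psmb10 to Psmb7, r with the same lists lay between 0.04 and 0.11, with adjusted p of 0.882 for each and r from -0.50 to 0.45 within control or HLU mice alone, and rho lay between -0.07 and 0.20 with adjusted p of at least 0.718. The same ratios were then set against the GC slope of each library, described next, a pair of relations added after the data had been seen. The ratio of Psmb10 to Psmb7 rose with the slope (r = 0.87, permutation p = 8e-05, adjusted p = 0.00016 over these 2, rho 0.83 with permutation p = 0.00036, r = 0.76 without Control 4 and HLU 4). It was 0.92 within control and 0.81 within HLU mice. The ratio of Psmb8 to Psmb5 was lower at a higher slope (r = -0.52, permutation p = 0.046, adjusted p = 0.046, rho -0.59 with permutation p = 0.0209, r = -0.65 without Control 4 and HLU 4), with r of -0.75 within control and -0.30 within HLU mice. Transcript GC was 58.4% in Psmb10 and 44.75% in Psmb7, and 54.4% in Psmb8 and 57.1% in Psmb5. A slope on GC separates genes of unlike GC by its definition. The sign of both relations with the slope was thus largely set in advance, and their p-values are descriptions. The part of cell makeup or of GC content in either ratio was not tested.

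**Figure D3:**
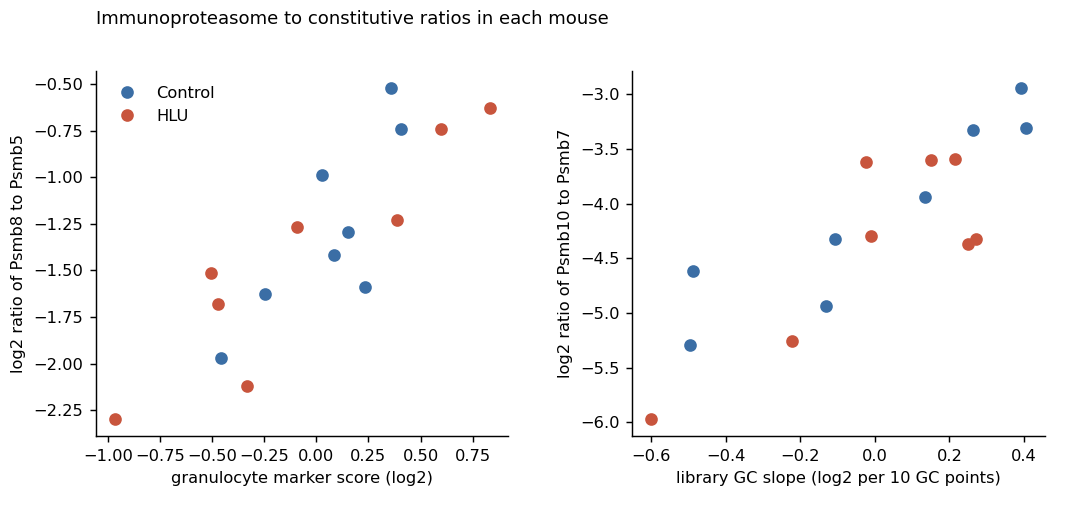
Left, log2 ratio of Psmb8 to Psmb5 (y axis) against the granulocyte marker score of each mouse, the mean centred log2 value of 8 markers (x axis). Right, log2 ratio of Psmb10 to Psmb7 against the GC slope of each library in log2 units per 10 GC points. Each point is a mouse, and in both panels the control and HLU points follow the same upward course, with r of 0.86 and 0.87 within groups.

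The members differed between libraries together with the GC content of their transcripts, the share of the bases G and C. The slope of log2 RPKM on GC over 15402 features was -0.49 per 10 GC points in Control 1, -0.49 in Control 4 and -0.60 in HLU 4. In the other libraries it ran from -0.22 to 0.41, and the group means did not differ beyond their spread (exact permutation p = 0.973). Transcript GC of the members tested ranged from 38.4% (Psme4) to 58.4% (Psmb10) with a median of 50.3%. The coding starts of Psmb5 (57.8% GC over 792 coding bases) and Psmc6 (41.8% over 1167 coding bases), a pair from either end of that range, are shown from GENCODE M21 with G and C in capitals.
Psmb5: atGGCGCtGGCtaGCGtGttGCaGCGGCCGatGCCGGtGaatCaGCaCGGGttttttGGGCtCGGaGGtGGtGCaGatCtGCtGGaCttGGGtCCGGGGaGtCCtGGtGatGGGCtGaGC
Psmc6: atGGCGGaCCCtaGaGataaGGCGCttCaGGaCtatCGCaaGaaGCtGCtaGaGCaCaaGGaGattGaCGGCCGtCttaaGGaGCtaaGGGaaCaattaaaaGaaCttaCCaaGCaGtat
Over these 120 bases GC was 63.3% in Psmb5 and 47.5% in Psmc6. In Control 1, Control 4 and HLU 4, the mean log2 value of Psmb5 differed by -1.51 from that of the other mice, and that of Psmc6 by 0.38. Psmg3 (54.0% GC) had the lowest difference, -2.54, and Psmb10 lay at -1.32, Psmb8 at -1.08 and Psme4 at 0.43. Of the 23 members above the median GC, 21 were lower in these 3 libraries, and of the 23 below it, 19 were higher. The correlation of this difference with GC was -0.73 over the 47 members, a description in which all points share the same libraries and in which the libraries were picked by their slope. The first axis of variation within groups held 63.2% of the variance of the members. The log2 values were not scaled for this, so members of wide spread such as Psmg3 weigh most. The median correlation between pairs of members within groups was only 0.20.

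**Figure D4:**
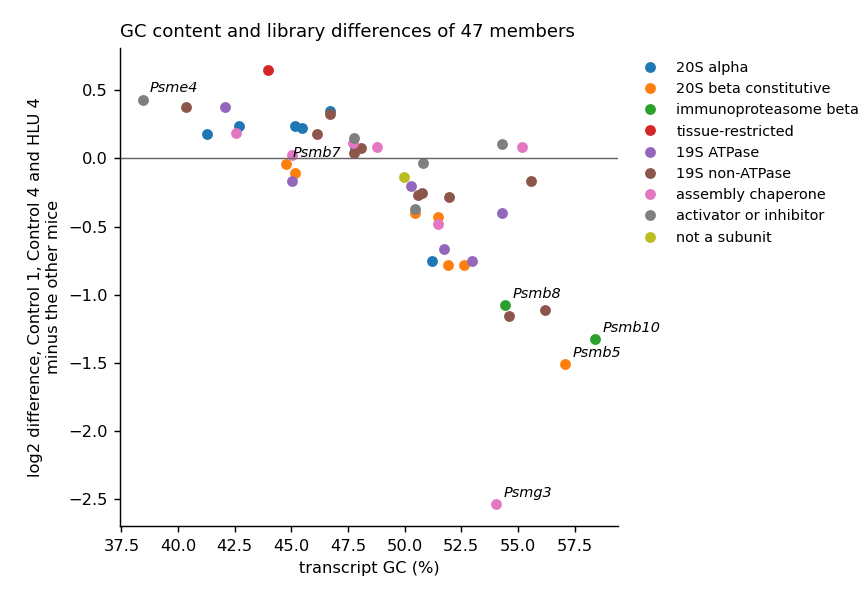
Log2 difference of Control 1, Control 4 and HLU 4 from the other mice (y axis) against transcript GC in percent (x axis), with a point for each of the 47 proteasome genes tested, coloured by structural group. The points slope downward to the right, from 0.43 in Psme4 to -1.51 in Psmb5 and -2.54 in Psmg3.

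The spread of the members differed widely. The within-group SD of log2 abundance ran from 0.14 (Psmc1) to 1.36 (Psmg3) with a median of 0.28. Across the members, the correlation of GC with the HLU against control fold change was -0.20. With the GC slope as a covariate, an alternative added after the data had been seen, 3 members were lower at an unadjusted p under 0.05 and 1.2-fold (Psmg2, Psmd5 and Psmb10), against 8.2% of all features, and 0 were higher. Psmb10 was then at -0.27 (SE 0.13, adjusted p = 0.421 in limma).

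The differences in the regulatory particle were small. The 6 ATPases, which unfold the substrate, had log2 fold changes from -0.10 (Psmc1) to 0.01 (Psmc3) with a median of -0.07, and all 6 intervals lay within 1.5-fold. Psmc1 was also the least variable member, at 87.4 ± 9.88 RPKM in control and 81.6 ± 5.97 RPKM under HLU (SD, n = 8 mice each). The 11 other subunits had a median of -0.09, with 8 below 0 and 10 intervals within 1.5-fold. They ran from -0.22 for Psmd14, the deubiquitinase of the particle, to 0.16 for Psmd8. Psmd8 ranged from 78.1 to 118 RPKM with a median of 103 RPKM in control mice and from 99.4 to 123 RPKM with a median of 115 RPKM in HLU mice. Of the HLU mice 7 lay above the control median, although the ranges overlapped. The single-gene exact permutation p was 0.0283, unadjusted, while limma gave an unadjusted p of 0.0991 and an adjusted p of 0.744, and the size stayed under 1.2-fold (0.16 on the log2 scale, SE 0.09). It passed 1.2-fold at an unadjusted p of 0.0137 under quantile normalization, at 0.31.

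The 7 assembly chaperones held both members with an unadjusted p under 0.05, and all 7 lay below 0, with a median of -0.23. Over all features 6.18% had such a p and 67.9% lay below 0, with a median of -0.10. Psmg2 pairs with Psmg1 to start the alpha ring and had the lowest p of all members. It ranged from 15.3 to 20.8 RPKM with a median of 18.0 RPKM in control mice and from 9.32 to 17.0 RPKM with a median of 14.4 RPKM in HLU mice. All 8 HLU mice lay below the control median, and the groups overlapped only between 15.3 and 17.0 RPKM. The log2 difference was -0.39 (SE 0.12), with an unadjusted p of 0.00419 and an adjusted p of 0.744 in limma, and the single-gene exact permutation p was 0.00124, unadjusted, where the smallest possible is 0.000155. It rested on 167 to 498 reads per library. Leaving out any mouse kept the difference between -0.43 and -0.31 and the unadjusted p at or below 0.00956 in limma. After median-of-ratios rescaling the difference was smaller, at -0.30 (unadjusted p = 0.0117 in limma). After quantile normalization it was -0.27 (unadjusted p = 0.0175 in limma), and with the blood scores described below as covariates -0.31 (unadjusted p = 0.0205 in limma).

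Psmd5 holds ATPases of the regulatory particle before the base is complete. It ranged from 10.8 to 17.7 RPKM with a median of 15.7 RPKM in control mice and from 8.33 to 14.3 RPKM with a median of 12.2 RPKM in HLU mice. All 8 HLU mice lay below the control median, but the lowest control mice lay among them. The log2 difference was -0.34 (SE 0.15, unadjusted p = 0.0348, adjusted p = 0.744 in limma), and leaving out some of the mice raised the unadjusted p in limma to as much as 0.0749 (without HLU 7). The unadjusted p in limma was also above 0.05 after median-of-ratios rescaling (log2 difference -0.26), after quantile normalization (-0.21), with the replicate number as a block (-0.34), and without Control 1, Control 4 and HLU 4 (-0.29). Over these fits it ran from 0.0723 to 0.125 in limma, with adjusted p from 0.725 to 0.904. Psmd5 lies at chr2:34849734-34874968 on the minus strand (GRCm38) and overlaps Cutal on the opposite strand, and the strand setting of the counting is not given in the sources used here.

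Psmg1, the partner of Psmg2, ranged from 10.5 to 14.7 RPKM with a median of 12.7 RPKM in control mice and from 9.40 to 14.1 RPKM with a median of 10.5 RPKM in HLU mice. Of the HLU mice 7 lay below the control median and HLU 8 lay near the top of the control range. The log2 difference was -0.22 (SE 0.10, unadjusted p = 0.0541, adjusted p = 0.744 in limma). Psmg4, which acts with Psmg3 on the alpha ring, ranged from 2.39 to 5.19 RPKM with a median of 4.65 RPKM in control mice and from 1.02 to 4.78 RPKM with a median of 3.37 RPKM in HLU mice. It had the most negative fold change of the members, -0.52 (SE 0.26, unadjusted p = 0.0628, adjusted p = 0.744 in limma), on only 12 to 63 reads per library. Without HLU 3 it was at -0.32 (unadjusted p = 0.127 in limma), above Psmd5 at -0.39 and Psmg2 at -0.36 in the same fit. Psmg3 was the least precise member, at 6.10 ± 4.90 RPKM in control and 4.16 ± 2.41 RPKM under HLU (SD, n = 8 mice each) on 7 to 193 reads, and its interval ran from -1.53 to 1.10. The remaining chaperones of the regulatory particle, Psmd9 and Psmd10 (gankyrin), were at -0.15 (SE 0.15) and -0.23 (SE 0.17).

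**Figure D5:**
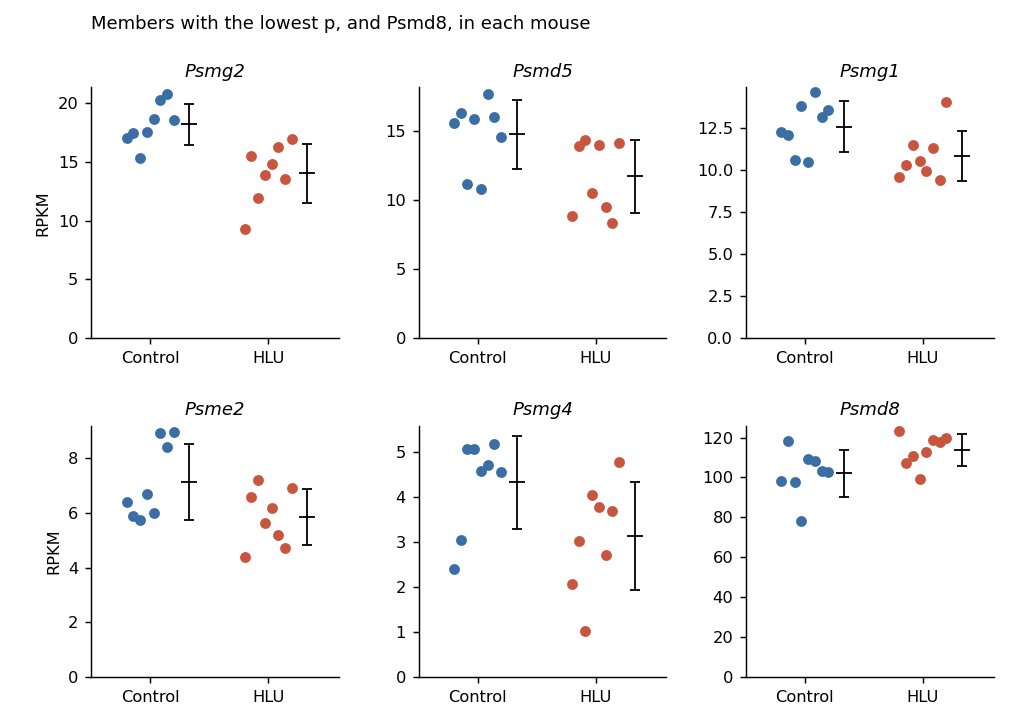
RPKM (y axis, from 0) in each control and HLU mouse for the 5 members with the lowest p in limma (Psmg2, Psmd5, Psmg1, Psme2 and Psmg4) and for Psmd8, with the mean and SD of each group at its right. The HLU points sit lower on average in the first 5 panels and higher for Psmd8, and the groups overlap in every panel.

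The activators replace the regulatory particle at the ends of the core. Psme1 and Psme2 encode PA28 alpha and beta, which are induced by interferon gamma. Psme1 ranged from 11.5 to 20.6 RPKM with a median of 15.6 RPKM in control mice and from 8.19 to 17.4 RPKM with a median of 12.9 RPKM in HLU mice. The groups overlapped between 11.5 and 17.4 RPKM, with a log2 difference of -0.26 (SE 0.16, adjusted p = 0.747 in limma). Psme2 ranged from 5.74 to 8.94 RPKM with a median of 6.55 RPKM in control mice and from 4.38 to 7.20 RPKM with a median of 5.90 RPKM in HLU mice. Of the control mice 3 lay above every HLU mouse, and the log2 difference was -0.28 (SE 0.14, unadjusted p = 0.0605, adjusted p = 0.744 in limma). Psme3, the nuclear PA28 gamma, was the most abundant of the group at 88.9 ± 21.9 RPKM in control and 73.6 ± 30.0 RPKM under HLU (SD, n = 8 mice each), with a log2 difference of -0.33 (SE 0.23, adjusted p = 0.757). Psme4, which encodes the activator PA200, was at 24.0 ± 3.63 RPKM in control and 28.2 ± 8.07 RPKM in HLU mice (n = 8 each), with the highest fold change of the members, 0.20 (SE 0.16, adjusted p = 0.764). Without HLU 4 it was at 0.09, below Psmd8 at 0.19, and with the blood scores described below as covariates it was at -0.05. Psmf1, the inhibitor PI31, was at -0.29 (SE 0.19, adjusted p = 0.747).

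Psma8, an alpha subunit of the testis, ranged from 0.402 to 1.81 RPKM with a median of 0.895 RPKM in control mice and from 0.326 to 1.56 RPKM with a median of 1.04 RPKM in HLU mice. It was the least abundant member tested, on 13 to 82 reads, and its log2 difference of -0.04 (SE 0.31) turned to 0.03 after median-of-ratios rescaling. Psmb11, the beta subunit of the thymus cortex, had 0 to 4 reads per library, a mean of 0.0192 RPKM in control and 0.0143 RPKM in HLU mice, and was not tested. Psmc3ip ranged from 4.59 to 7.57 RPKM with a median of 6.24 RPKM in control mice and from 3.904 to 6.79 RPKM with a median of 4.88 RPKM in HLU mice, with a log2 difference of -0.26 (SE 0.14, unadjusted p = 0.0888, adjusted p = 0.744 in limma).

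The other genes of the pathway included cofactors of the regulatory particle, shuttles that bring ubiquitinated proteins to it, ubiquitin genes, and the antigen presentation genes that share interferon control with the immunoproteasome. Of 36 genes listed, 32 had a feature and were tested, and Nfe2l1, which encodes the factor NRF1, was among the genes not analysed here. Of the 32, 3 were lower at an unadjusted p under 0.05 and 1.2-fold, 0 were higher, and 28 lay below 0, with a median of -0.13. Over all features these shares were 4.76% lower, 1.11% higher and 67.9% below 0, with a median of -0.10. Among those 3 were Nlrc5, the transactivator of MHC class I genes, and Tap1, a subunit of the peptide transporter that receives proteasome products. Nlrc5 was at -0.46 (SE 0.18, unadjusted p = 0.0188) and Tap1 at -0.41 (SE 0.18, unadjusted p = 0.0362), each with an adjusted p of 0.744 in limma. Tapbp, the chaperone that links the transporter to MHC class I, was at -0.25 (SE 0.11, unadjusted p = 0.0318, adjusted p = 0.744 in limma), under 1.2-fold. Irf1, an interferon-induced factor, was at -0.17 (SE 0.17, adjusted p = 0.787). Pomp, the chaperone that matures the core, was at 131 ± 25.9 RPKM in control and 118 ± 18.4 RPKM in HLU mice (n = 8 each), a log2 difference of -0.13 (SE 0.14, adjusted p = 0.807 in limma). Adrm1, the ubiquitin receptor of the regulatory particle, was listed near the filter at 0.626 RPKM in control and 0.496 RPKM in HLU mice, with a log2 difference of -0.22 (SE 0.30, adjusted p = 0.852). It held 24 to 212 reads per library, and the gene length behind its RPKM was 11856 bases, so its low RPKM depends on this length.

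Psmb8 and Psmb10 followed many other transcripts across the mice. The features most like Psmb8 in within-group log2 abundance over the 16 mice were Sipa1 (r = 0.99), Chtf8 (0.98), Tnfaip2 (0.98), Tyrobp (0.98) and Gm20496 (0.98), and 26.9% of features had an r above 0.5 with it. Gm20496 overlaps Psmb8 on the opposite strand, so the reads of this pair may not be separate. Those most like Psmb10 were Man2b2 (0.99), Tgfb1i1 (0.98), Epn1 (0.98), Lmf2 (0.98) and Phc2 (0.98), and 26.4% of features had an r above 0.5. All 10 had a transcript GC of at least 54.5%. The share of all features at this GC was not computed. The 10 were picked by their likeness to members that are themselves GC-rich (54.4% in Psmb8 and 58.4% in Psmb10), so this is a description only.

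Some blood cell markers were lower in HLU mice by the looser description, none past the adjusted threshold. Of 11 erythroid markers tested, 4 were lower in HLU mice at an unadjusted p under 0.05 and 1.2-fold, against 4.76% of all features, with a median of -0.66 beside -0.10 over all features, and their summed level ran from 3030 to 8861 RPKM in control and 1671 to 4511 RPKM in HLU mice. Of 3 megakaryocyte markers, 2 were lower, and their summed level ran from 930.5 to 1566 RPKM in control and 401 to 1338 RPKM in HLU mice. Of 8 granulocyte markers 0 were called, with a median of -0.14, and of 7 B lymphocyte markers 0 were called, with a median of -0.35. Of 3 T lymphocyte markers 1 was lower, with a median of -0.46, and none of the macrophage, plasma cell, osteoblast, osteoclast, endothelial and adipocyte markers was called. In two-sided exact permutation tests of the mean marker score (n = 8 mice each), unadjusted over the lists, p was 0.0763 for erythroid, 0.0219 for megakaryocyte, 0.576 for granulocyte and 0.223 for B lymphocyte markers. The part of these cells in the members' values was not tested beyond the fit that follows. Of 6 osteocyte markers 1 was higher, against 1.11% of all features, with a median of 0.35. This was Mepe, at 0.79 (SE 0.32, unadjusted p = 0.0247, adjusted p = 0.744 in limma). With the erythroid and granulocyte scores as covariates, 5 members were higher and 4 were lower at an unadjusted p under 0.05 and 1.2-fold, against 8.27% and 10.5% of all features, and 4 passed the adjusted threshold with 1.2-fold, against 7.87% of all features. Those 4 were Psmb5 at 0.48 (SE 0.15, adjusted p = 0.0966) and Psmd4 at 0.42 (SE 0.12, adjusted p = 0.0807) on the high side, and Psmd5 at -0.30 (SE 0.09, adjusted p = 0.0896) and Psme3 at -0.27 (SE 0.07, adjusted p = 0.0686) on the low side, in limma. The members' shares in that fit were again near the background.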

How the data were processed

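Total RNA of flushed femoral cortical bone was measured in 8 control and 8 HLU mice, grouped by the sample titles. The authors deposited RPKM values for each mouse, and the submitters' processing notes name TopHat2, DESeq2 and the build mm9. The annotation, gene lengths and strand setting of the counting are not given in the sources used here. Because RPKM are not counts, the groups were compared with limma 3.58.1 (R 4.3.3) on log2(RPKM + 0.1), with equal weights, a variance trend, and Benjamini-Hochberg adjustment over all 16973 features that averaged 0.5 RPKM or more, so that fold changes of low genes are understated. Of all features, 3887 share the symbol Rnf135 and were tested but not named.

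Members and gene lists were chosen with earlier results of these data known. Values by group are given for the catalytic subunits, Psme1, Psme2, the tissue-restricted subunits, Psmc3ip and the 5 members with the lowest p, and the other members named are the extremes of a structural group. Psmd8 was also chosen after its exact p had been seen. In the pathway list, the genes named are those with an unadjusted p under 0.05 and a set fixed by name, of which 1 is not reported here. Single genes and ratios had an exact two-sided permutation test over 12870 splits of the mice (Python 3.11.15, pandas 2.3.3, numpy 2.4.6, scipy 1.17.1). Relations across mice used 100000 permutations within groups. Marker scores are means of centred log2 values.

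Whole reads were recovered by finding the divisor of each library and the gene length that make all 16 values of a feature whole, to 0.005 reads (16973 of 16973 tested features), with numba 0.67.0. Intervals cover the spread between mice. Both steps were tested on simulated data. Transcript GC was the mean over the GENCODE M21 transcripts of a gene and was found for all 48 members. RefSeq and GENCODE coordinates are on GRCm38, not the build of the files, and served for names, sequences and overlaps. Alternatives covered the pseudocount, the filter, rescaling, the replicate number, recovered reads, blood scores, depth and GC. Figures were drawn with matplotlib 3.10.9.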

Additional observations from a re-analysis of the deposited data

Results flagged for a closer look

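Among 98 sets of 8 values, those of the control and the HLU mice for each of the 47 members tested and the 2 log2 ratios, 5 held a mouse whose gap to its nearest neighbour was more than 0.526 of the group's range, and chance alone flags about 1 in 20 sets, here 4.9. Of these 5, 3 were in HLU 4, a library with low values of GC-rich transcripts, and all were kept in the comparison. In HLU 4, Psma7 was at 11.58 RPKM against 18.9 RPKM in the next HLU mouse, Psmd4 was at 6.516 RPKM against 12.9 RPKM, and Psme4, the member of lowest GC, was at 45.25 RPKM against 29.5 RPKM. Psmf1 was at 7.499 RPKM in Control 7 against 5.43 RPKM in the next control mouse. Psmg1 was at 14.07 RPKM in HLU 8 against 11.5 RPKM in the next HLU mouse.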

How the results depend on the processing

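Under 12 alternative fits, 13 members were followed: the catalytic subunits, Psme1, Psme2, Psma8, Psmc3ip and the 5 members with the lowest p. Of their 155 values, 141 kept their direction and their side of the adjusted threshold and 12 changed sign. The other 2 kept their direction with an adjusted p newly under 0.1 (Psmd5 and, under 1.2-fold at -0.24, Psme1, with blood scores). Outside these 13, the adjusted p in limma was also newly under 0.1 with blood scores for Psme3 (-0.27), Psmd4 (reversed to 0.42) and, under 1.2-fold, Psma1 (-0.24). Other members changed sign too, such as Psme4 (-0.05 with blood scores) and Psmg3, which ran from -0.62 to 0.90 over the fits. With median-of-ratios rescaling, 401 features were lower and 376 higher at an unadjusted p under 0.05 and 1.2-fold, with 1 member lower (Psmg2). With quantile normalization these counts were 364, 460 and 1, with 1 member higher (Psmd8). Psmb6 reversed to 0.0659 and 0.109 under these rescalings, Psma8 to 0.0322 and 0.0254, and Psmb5 to 0.00573 under the latter. With blood scores as covariates, 1404 features were higher, 1789 lower and 1335 past the adjusted threshold, with 5 members higher, 4 lower and 4 past that threshold. Psmb5 (0.48, with an adjusted p of 0.0966 in limma), Psmb6 (0.25), Psmb8 (0.25) and Psmb10 (0.34) reversed there. Without the 2 shallowest libraries (Control 2 and HLU 5), 863 of the 16973 features tested were lower and 108 higher. Of the 47 members, 4 were lower there (Psmg2, Psmd5, Psmg4 and Psme2), and Psmb6 reversed to 0.00957. With the GC slope as a covariate 1391 features were lower. Without Control 1, Control 4 and HLU 4, Psmb7 reversed to -0.0319, Psma8 to 0.237 and the log2 ratio of Psmb8 to Psmb5 to 0.0156. Without a filter 391 features were higher and 1 passed the adjusted threshold, and with a mean of at least 2 RPKM 106 were higher. The cause of these shifts was not tested. Same-numbered mice had deviations with r from -0.17 to 0.51 (3 of 8 above 0.1), so the replicate number was not taken as a pairing, and with the replicate block 840 features were lower, 199 higher and 2 members lower (Psmg2 and Psmg4). Low depth limits Psmg3, Psmg4 and Psma8 most.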

Other observations

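Of the 4 pseudogene features that the choice by symbol left out, Psme2b-ps, a copy related to Psme2, was lower in HLU mice, and it was chosen after its values had been seen. It ranged from 0.934 to 2.00 RPKM with a median of 1.51 RPKM in control mice. In HLU mice it ranged from 0.301 to 1.31 RPKM with a median of 0.696 RPKM, and all 8 lay below the control median, 5 of them below every control mouse. The log2 difference was -0.98 (SE 0.27), with an unadjusted p of 0.00206 and an adjusted p of 0.744 in limma, on 4 to 31 reads per library. How reads shared with Psme2 were counted is not given in the sources used here, so the value is uncertain. Psmb7-ps2 was at 0.577 RPKM in control and 0.552 RPKM in HLU mice, with a log2 difference of -0.04 (SE 0.39). Psmb5-ps was listed at 0 in all 16 mice, and Psmb6-ps had 0 to 2 reads per library.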
